A study of Mus musculus with 12 samples.

Results

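The genes described here are 38 enzymes, transporters and regulators of glucose breakdown, chosen by name from the steps of glycolysis, the tricarboxylic acid (TCA) cycle, glucose and lactate transport and their control by hypoxia. All 38 were among the 18879 genes of the deposited table. They were measured by single-cell RNA sequencing of methanol-fixed cells of prefrontal cortex from mice of the labelled strain C57BL/6J at postnatal day 0, in 3 libraries of 2 pooled animals each. HOM animals were homozygous and HET animals heterozygous for a frameshift allele of Myt1l, a neuronal transcription factor, in which 7 bp are missing from exon 6, and WT animals carried no mutant allele. The HOM library held 13688 cells, the HET library 12072 and the WT library 10503, and the 12 deposited samples are 4 sequencing runs of each library, so they are not replicates.

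Glycolysis splits glucose into pyruvate in the cytosol, with a small yield of ATP. Pyruvate then either becomes lactate through lactate dehydrogenase or enters mitochondria, where the pyruvate dehydrogenase complex turns it into acetyl-CoA for the TCA cycle. In brain, glucose crosses the endothelium through Slc2a1 and enters neurons mainly through Slc2a3, astrocytes are known for active glycolysis, and glycolytic enzymes decline as progenitors become neurons that rely on oxidative metabolism. Hif1a encodes the oxygen-sensitive subunit of a transcription factor that raises glycolytic genes in hypoxia, mainly through the stability of its protein, and Txnip restrains glucose uptake and is induced by glucose.

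Levels are given as depth-corrected values per 1000000 of all genes (CPM), summed over the cells of one deposited cell type in one library, and differences as log2 ratios of these levels. A gene counted as measured in a cell type where its sum over both libraries reached 50, and as past the fold where the ratio exceeded 1.5-fold (0.585 on the log2 scale). Each genotype had a single library, so there is no measure of variation between animals and no p-value, and the values compare 3 libraries. Both mutants were set against the same WT library, so the HOM and HET ratios are not independent of each other. Of the 21 cell types, 18 had at least 100 cells in each library. Levels of different genes are not compared with each other, since they were not scaled by length.

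Several features of the libraries bear on every value below. Median depth was 1330 molecules per cell in HOM, 1099 in HET and 1045 in WT, and the median mitochondrial share was 3.76%, 5.36% and 4.89% in the same order. The sex of the animals differed: transcripts of Y-linked genes without Xist were found in 2086 HOM, 1865 HET and 594 WT cells, and Xist without Y-linked transcripts in 1, 2 and 2112. Pairs of libraries shared 199 to 240 cell barcodes. The order of genotypes beside the cell numbers differs in a legend of the study, and genotype names here follow the deposited cell table. Markers were read against the cell type labels, with a summed level of layer neuron markers of 1585 to 3402 CPM in the layer II to VI types and of microglia markers of 7027 to 8573 CPM in Microglia. Endothelial2 [21-P] departed from its label, at 163, 99.2 and 103 CPM of endothelial markers in HOM, HET and WT. Its mural markers stood at 11417, 15262 and 13635 CPM, and it is called by its label only. Its HOM cells also held 18981 CPM of meningeal markers, against 302 in HET and 227 in WT. LayerII-IV [4-P] and LayerV-VI [18-P] held interneuron and striatal markers too. In HOM these summed to 2282 and 2042 CPM, above the 1861 and 2011 CPM of layer neuron markers. In WT they summed to 1190 and 966 CPM, below 1669 and 1772. Both are called layer types by their labels.

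Across the 38 genes, 36 were measured in at least 1 cell type of each mutant comparison. The exceptions were Hk2 and Slc16a3 for HOM against WT and Slc16a3 and Pdk1 for HET against WT. In the 4 layer II to VI neuron types, LayerII-IV [1-P], LayerII-IV [4-P], LayerV-VI [12-P] and LayerV-VI [18-P], 23 members were measured throughout for HOM and 21 for HET. The other members had low sums there, so counts over measured members do not speak for all 38.

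In layer II to VI neurons of the HOM library, RNA of 9 glycolytic enzymes was higher than in WT, while Hif1a was lower. The 9 are Gpi1, Aldoa, Tpi1, Gapdh, Pgk1, Pgam1, Eno1, Pkm and Ldha, a chosen part of the glycolytic members. Left out were Hk1 and Pfkp, with HOM means of -0.19 and 0.08 in these neurons. Also left out were Pfkm and Eno2, with HOM medians over measured types of 0.11 and -0.17, and Pfkl, Aldoc and Ldhb, with 0.68, 0.30 and 0.35. Counts over the 9 therefore do not speak for all glycolytic members. No mean ratio of a measured pyruvate dehydrogenase gene was past 1.5-fold, and of 6 measured TCA cycle genes only Mdh1 had one past it. Of the 23 measured members, 9 had a mean ratio past 1.5-fold higher (39.1%), against 2.77% of the 3388 genes measured in the same types, and 1 was past it lower, against 6.2% of genes. Of the 23, 12 were higher in all 4 types (52.2%, against 21.4% of genes), 1 was lower in all 4 (against 25.6%), and the median log2 ratio was 0.42, against -0.03 over all genes. In the HET library none of the 21 measured members was past 1.5-fold higher or lower, against 0.308% and 1.97% of genes. There 13 were higher in all 4 types (61.9%, against 20.9%) and 3 lower in all 4 (against 23.8%), with a median of 0.32, against -0.02.

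The upper part of the pathway is described first. In the order of the 4 types given above, Gpi1, which converts glucose 6-phosphate to fructose 6-phosphate, stood at 159, 163, 137 and 153 CPM in HOM, 101, 139, 95.3 and 109 CPM in HET and 87.8, 89.2, 73.8 and 74.3 CPM in WT. Every HOM type lay above every WT type, and the mean log2 ratio was 0.91 in HOM and 0.44 in HET. Tpi1, the triose phosphate isomerase, stood at 238, 260, 146 and 187 CPM in HOM, 163, 210, 108 and 147 CPM in HET and 117, 162, 80.0 and 99.1 CPM in WT. It kept the order HOM, HET, WT in each type, at 0.87 in HOM and 0.46 in HET. Aldoa, an aldolase that splits fructose bisphosphate, was at 169, 267, 158 and 259 CPM in HOM, 182, 254, 152 and 251 CPM in HET and 131, 165, 135 and 179 CPM in WT. Its mutant levels lay close together, and its mean ratios were 0.45 in HOM and 0.44 in HET, neither past the fold.

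Gapdh, which makes the first energy-rich phosphate of the pathway, was at 1191, 1319, 799 and 1123 CPM in HOM, 928, 966, 654 and 839 CPM in HET and 692, 824, 511 and 700 CPM in WT. The ratio was narrow over the 4 types, with means of 0.70 in HOM and 0.32 in HET. Pgk1, an X-linked phosphoglycerate kinase, was at 181, 230, 149 and 196 CPM in HOM, 173, 224, 126 and 160 CPM in HET and 111, 162, 111 and 120 CPM in WT. At 0.59 it was the lowest HOM mean past the fold, and it stood at 0.43 in HET. Pgam1, which moves the phosphate within phosphoglycerate, was at 277, 328, 172 and 334 CPM in HOM, 253, 342, 148 and 314 CPM in HET and 183, 253, 169 and 209 CPM in WT. In LayerV-VI [12-P] its HOM and WT levels were nearly equal, and the means were 0.42 and 0.32 in HOM and HET.

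At the last steps, Eno1, the enolase of progenitors and glia, was at 194, 180, 178 and 150 CPM in HOM, 118, 164, 71.5 and 105 CPM in HET and 82.7, 101, 80.0 and 102 CPM in WT. The HOM levels were above every WT level, whereas HET lay below WT in LayerV-VI [12-P], and the mean ratios were 0.94 and 0.27 in HOM and HET. Pkm, the pyruvate kinase of brain, was at 613, 383, 472 and 317 CPM in HOM, 414, 333, 310 and 309 CPM in HET and 320, 266, 255 and 240 CPM in WT, with means of 0.69 and 0.33. Ldha, the lactate dehydrogenase subunit that favours lactate, was at 308, 476, 149 and 496 CPM in HOM, 228, 426, 128 and 365 CPM in HET and 154, 291, 86.1 and 242 CPM in WT. Its level differed widely between neuron types, yet each type kept the order HOM, HET, WT, with means of 0.88 in HOM and 0.57 in HET. Ldhb, the subunit that favours pyruvate, was at 411, 233, 489 and 270 CPM in HOM, 351, 245, 387 and 215 CPM in HET and 298, 220, 372 and 171 CPM in WT, with means of 0.40 and 0.19.

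**Figure D1:**
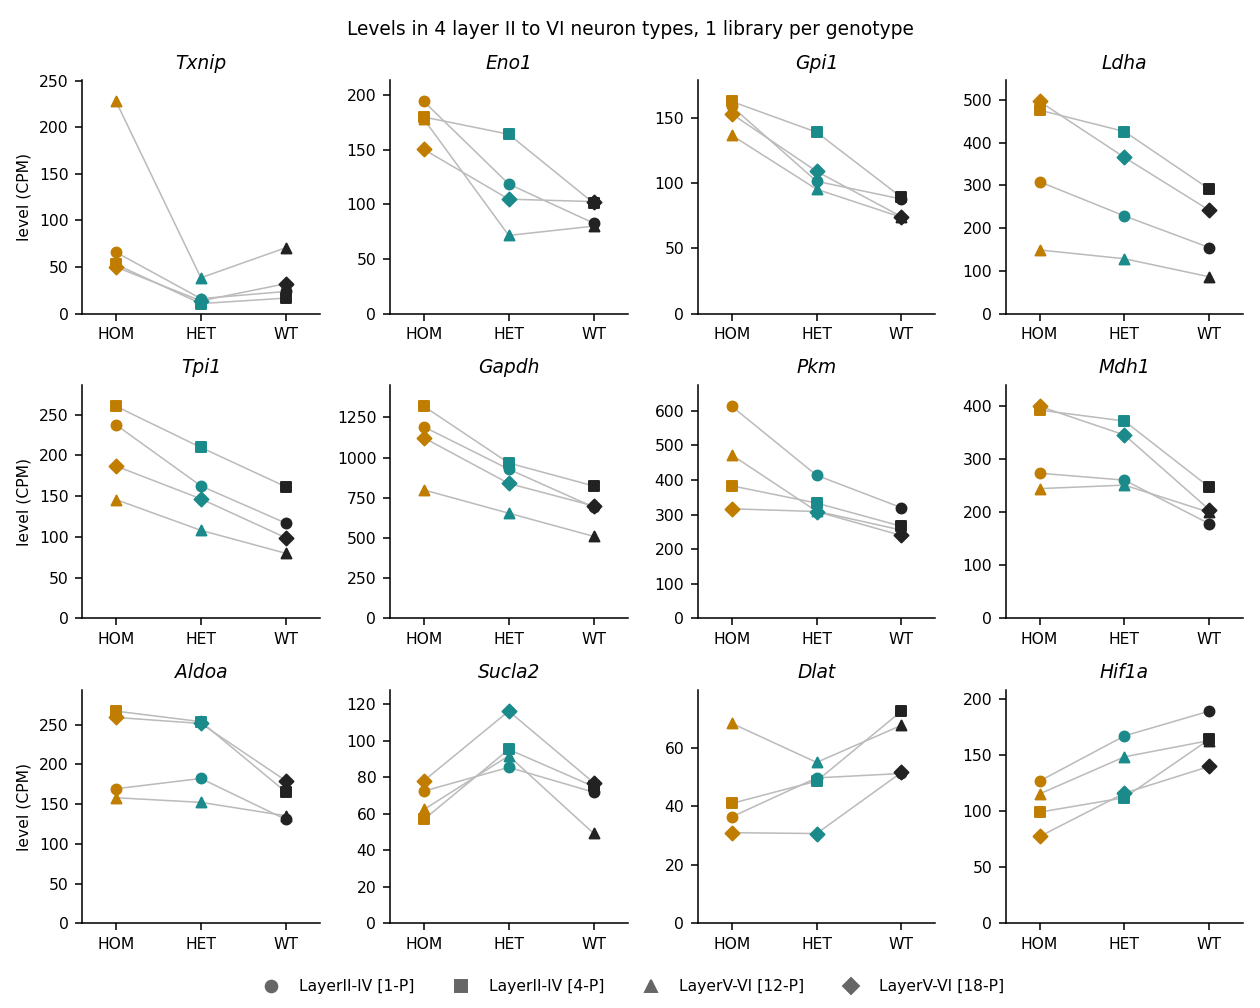
Level in CPM (y axis, from 0) of 12 of the genes in the HOM, HET and WT libraries (x axis), with a marker for each of the 4 layer II to VI neuron types and grey lines joining the same type. Gpi1 sits between 137 and 163 CPM in HOM and between 73.8 and 89.2 CPM in WT, Hif1a runs the other way, and Sucla2 is highest in HET.

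Txnip was higher in HOM and lower in HET. It stood at 65.9, 52.9, 228 and 50.02 CPM in HOM, 16.1, 10.8, 38.5 and 13.7 CPM in HET and 23.8, 16.6, 70.7 and 32.1 CPM in WT, so HET was lowest and HOM highest in each type. The HOM mean was 1.37, the largest of the members, and the mean of HOM over HET, which does not use WT, was 2.19. These levels rest on low sums, as WT values added up to 52, 14, 23 and 48, and HET against WT was measured in 2 of the 4 types only, at -0.57 in LayerII-IV [1-P] and -1.23 in LayerV-VI [18-P].

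Among the entry steps, Hk1, the main hexokinase of brain, had 79.2, 126, 88.1 and 104 CPM in HOM, 73.8, 125, 55.0 and 106 CPM in HET and 96.9, 152, 80.0 and 131 CPM in WT. Its means were -0.19 in HOM and -0.38 in HET, and it was below WT in all 4 types of HET. Pfkp, a phosphofructokinase subunit, was measured throughout in HOM only, at a mean of 0.08, with 19.0, 74.0, 48.6 and 81.0 CPM in HOM, 16.1, 50.6, 49.5 and 85.4 CPM in HET and 13.7, 65.4, 61.5 and 81.0 CPM in WT. The liver-type subunit Pfkl reached the minimum sum in 8 cell types for HOM, was higher in each and past the fold in 5, with 48.9 CPM in HOM, 27.7 in HET and 22.6 in WT in LayerII-IV [4-P] and 42.9, 29.6 and 19.4 CPM in LayerV-VI [18-P]. Of the muscle-type subunit Pfkm, by contrast, no HOM ratio in 8 types was past the fold.

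At the entry of pyruvate into the TCA cycle the differences were small or of the other sign. Pdha1 and Pdhb, which form the first enzyme of the pyruvate dehydrogenase complex, had HOM means of 0.11 and 0.22, and Pdhb had a HET mean of 0.30. Dlat, the acetyl transferase of the same complex, stood at 36.4, 41.0, 68.3 and 31.0 CPM in HOM, 49.7, 48.6, 55.0 and 30.7 CPM in HET and 51.2, 72.5, 67.7 and 51.5 CPM in WT. Its means were -0.51 and -0.42 in HOM and HET, with HET below WT in all 4 types and HOM level with WT in LayerV-VI [12-P]. WT sums of 112, 61, 22 and 77 lie behind these levels.

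Within the cycle, Cs, the citrate synthase, had means of -0.04 and -0.07 in HOM and HET. Mdh1, the cytosolic malate dehydrogenase of the malate-aspartate shuttle, was at 274, 392, 245 and 400 CPM in HOM, 261, 372, 251 and 346 CPM in HET and 178, 247, 200 and 205 CPM in WT. It was higher in all 4 types of both mutants, at 0.63 and 0.55, and its HOM and HET levels lay close together. Mdh2, its mitochondrial partner, had means of 0.22 and 0.24. Of the isocitrate dehydrogenase subunits, Idh3b had means of 0.51 and 0.39, with the HOM value nearest below the fold, and Idh3a -0.02 and 0.27.

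Sucla2, a subunit of succinyl-CoA synthetase, was highest in HET, at 72.3, 56.8, 62.3 and 78.0 CPM in HOM, 85.3, 95.1, 91.6 and 116 CPM in HET and 71.8, 74.9, 49.2 and 77.0 CPM in WT. Its mean was 0.52 in HET, -0.01 in HOM and -0.53 for HOM over HET. Suclg1, the partner subunit, had a mean of 0.30 in HET and -0.42 for HOM over HET. Ogdh, which feeds this step with succinyl-CoA, was past the fold lower in 4 of the 7 types measured in HET and in none of 9 in HOM.

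Hif1a was lower in both mutants. It stood at 127, 99.1, 115 and 77.4 CPM in HOM, 167, 112, 148 and 116 CPM in HET and 189, 164, 163 and 140 CPM in WT. Each HOM type lay below every WT type, with HET between HOM and WT in each type, and the means were -0.66 and -0.28. Bnip3, a mitochondrial target of HIF, was measured in 10 types in HOM, higher in 8 and past the fold in 3, and in 8 types in HET, higher in 6. Egln3, an oxygen-sensing hydroxylase, was at 71.9, 124 and 107 CPM in Astrocytes (immature) 1 [10-P] of HOM, HET and WT.

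**Figure D2:**
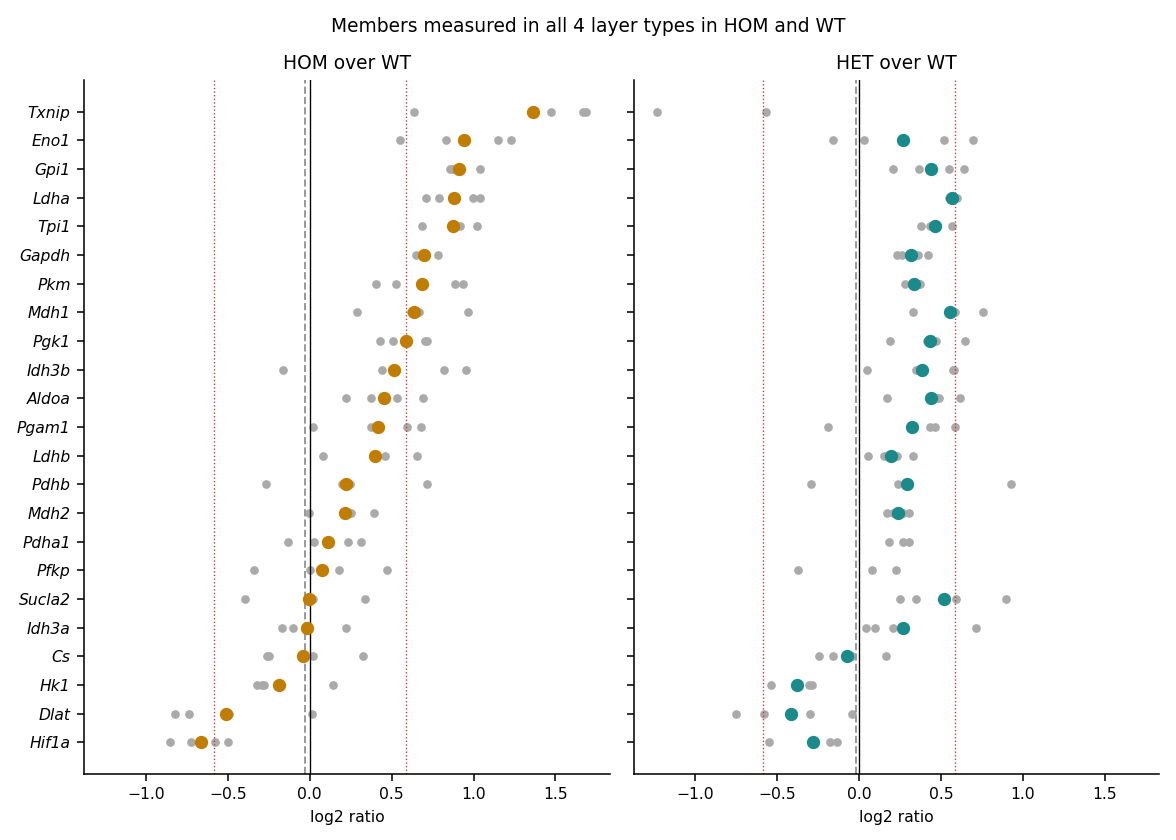
Log2 ratio to WT (x axis) in layer II to VI neurons for the 23 members measured in all 4 types in HOM (y axis), HOM on the left and HET on the right, with grey points for single types, coloured points for their mean where all 4 were measured, a dashed line at the median of all genes and red dotted lines at 1.5-fold. Txnip has a HOM mean of 1.37 and Hif1a of -0.66, while no HET mean passes 1.5-fold.

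The members can also be read HOM over HET, without the WT library. The median of 27 members was then 0.09, against -0.01 over 4094 genes, and 2 were past the fold higher (background 0.733%), Txnip at 2.19 and Eno1 at 0.67. Gpi1 followed at 0.47, Tpi1 at 0.41, Gapdh at 0.38, Pkm at 0.35 and Ldha at 0.31. Of 19 members measured in at least 15 types, Ldha and Gapdh were higher in HOM than in HET in all 18 cell types (10.5%, against 2.45% of genes), and Hif1a was lower in all 18 (1 member, against 2.45%).

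To show the upstream sequence of members that were higher together, the 250 bases before a transcription start are printed for Txnip, Eno1, Gpi1 and Ldha, the 4 genes with the largest HOM means in layer neurons. Sequences are from RefSeq on GRCm38.p6, read 5′ to 3′ on the strand of the gene. Where RefSeq lists several starts, 3 for Eno1 and 2 for Ldha, the most upstream is shown. The Ldha gene model used for coordinates begins further upstream, at position 46841475 of chromosome 7. Capitals mark ACGTG or GCGTG, the core of the hypoxia response element, on either strand (CACGT and CACGC are their reverse complements), and the AAAGTT core searched as the MYT1L motif is left in lower case.
Txnip promoter, chr3:96557707-96557956, + strand: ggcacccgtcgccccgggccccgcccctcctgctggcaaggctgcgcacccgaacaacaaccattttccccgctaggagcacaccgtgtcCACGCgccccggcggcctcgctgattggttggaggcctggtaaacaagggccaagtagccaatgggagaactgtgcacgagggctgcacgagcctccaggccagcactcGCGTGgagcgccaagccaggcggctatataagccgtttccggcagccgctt
Eno1 promoter, chr4:150236458-150236707, + strand: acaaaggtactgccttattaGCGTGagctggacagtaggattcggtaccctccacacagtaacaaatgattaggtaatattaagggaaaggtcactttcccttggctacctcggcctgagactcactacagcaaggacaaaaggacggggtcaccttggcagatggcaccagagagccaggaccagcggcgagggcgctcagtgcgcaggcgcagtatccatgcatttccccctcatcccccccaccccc
Gpi1 promoter, chr7:34230337-34230586, - strand: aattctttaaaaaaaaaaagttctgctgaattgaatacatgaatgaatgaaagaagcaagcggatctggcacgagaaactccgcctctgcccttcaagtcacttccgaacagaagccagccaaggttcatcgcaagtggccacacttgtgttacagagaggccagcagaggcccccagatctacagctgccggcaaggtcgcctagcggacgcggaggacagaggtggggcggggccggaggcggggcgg
Ldha promoter, chr7:46845554-46845803, + strand: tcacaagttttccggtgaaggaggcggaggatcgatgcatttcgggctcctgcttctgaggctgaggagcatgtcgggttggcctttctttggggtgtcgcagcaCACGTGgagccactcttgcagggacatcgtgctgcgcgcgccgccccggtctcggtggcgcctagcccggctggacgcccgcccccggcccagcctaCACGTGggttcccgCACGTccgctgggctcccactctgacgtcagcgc
In these stretches Txnip held 2 GCGTG matches, Eno1 1, Gpi1 none, and Ldha 5 ACGTG matches, since its pair of CACGTG palindromes counts on both strands. Of 38 members 36 matched a RefSeq promoter, and ACGTG or GCGTG was found in 41 of their 53 promoters (77.4%), against 38.6% of 32851 promoters of the same length. The 9 members past the fold in HOM layer neurons and the 13 others measured there and matched differed little, with 7 of 9 genes (77.8%) and 9 of 13 (69.2%) holding it at any listed start. AAAGTT was found in 16.98% of member promoters, against 12.4% of all, among them Gpi1, Dlat and Sucla2. A match is a run of letters and no evidence of binding.

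Across all 18 cell types the HOM library again exceeded WT most at the middle and lower steps of glycolysis. Of 451 values of a member in a cell type, 151 were past 1.5-fold higher (33.5%), against 7.29% over all genes, and 16 were past it lower, against 13.3%. By step, 80 of 141 values from aldolase to pyruvate kinase were past the fold higher (median 0.65), as were 20 of 36 for lactate dehydrogenase (0.66). The steps from glucose to fructose bisphosphate had 18 of 50 (0.32), the TCA cycle 20 of 133 (0.23) and pyruvate dehydrogenase and its kinase 3 of 42 (0.05). Transport had 1 of 7 past it higher and 1 lower (-0.31), and hypoxia control with Txnip 9 of 42 higher and 7 lower (-0.07). Of the 17 members measured in at least 15 types, Eno1, Gapdh, Gpi1, Mdh1, Pgam1 and Pkm were higher in all of them (35.3%, against 8.1% of genes), and Hif1a was lower in all 17 of its types (1 member, against 5.17% of genes), between -0.31 in Int2 [14-P] and -1.24 in Endothelial1 [17-P].

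In HET, 58 of 423 such values were past the fold higher (13.7%, against 5.14% over all genes) and 16 lower (against 8.26%). By step, 19 of 136 values from aldolase to pyruvate kinase were past the fold higher (median 0.32), as were 7 of 35 for lactate dehydrogenase (0.36), 23 of 126 in the TCA cycle (0.30), 6 of 45 for the steps from glucose to fructose bisphosphate (0.18) and 2 of 37 for pyruvate dehydrogenase and its kinase (0.21). Transport had 0 of 6 past it higher and 2 lower (-0.24), and hypoxia control with Txnip 1 of 38 higher and 6 lower (-0.19). Aldoa, Idh3a, Mdh1 and Pgk1 were higher in all types in which they were measured, 4 of 18 members with at least 15 types (22.2%, against 4.49% of genes), and none was lower in all of them (against 2.58%). Mdh1 was past the fold in 8 of 18 types and Idh3a in 6 of 15.

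**Figure D3:**
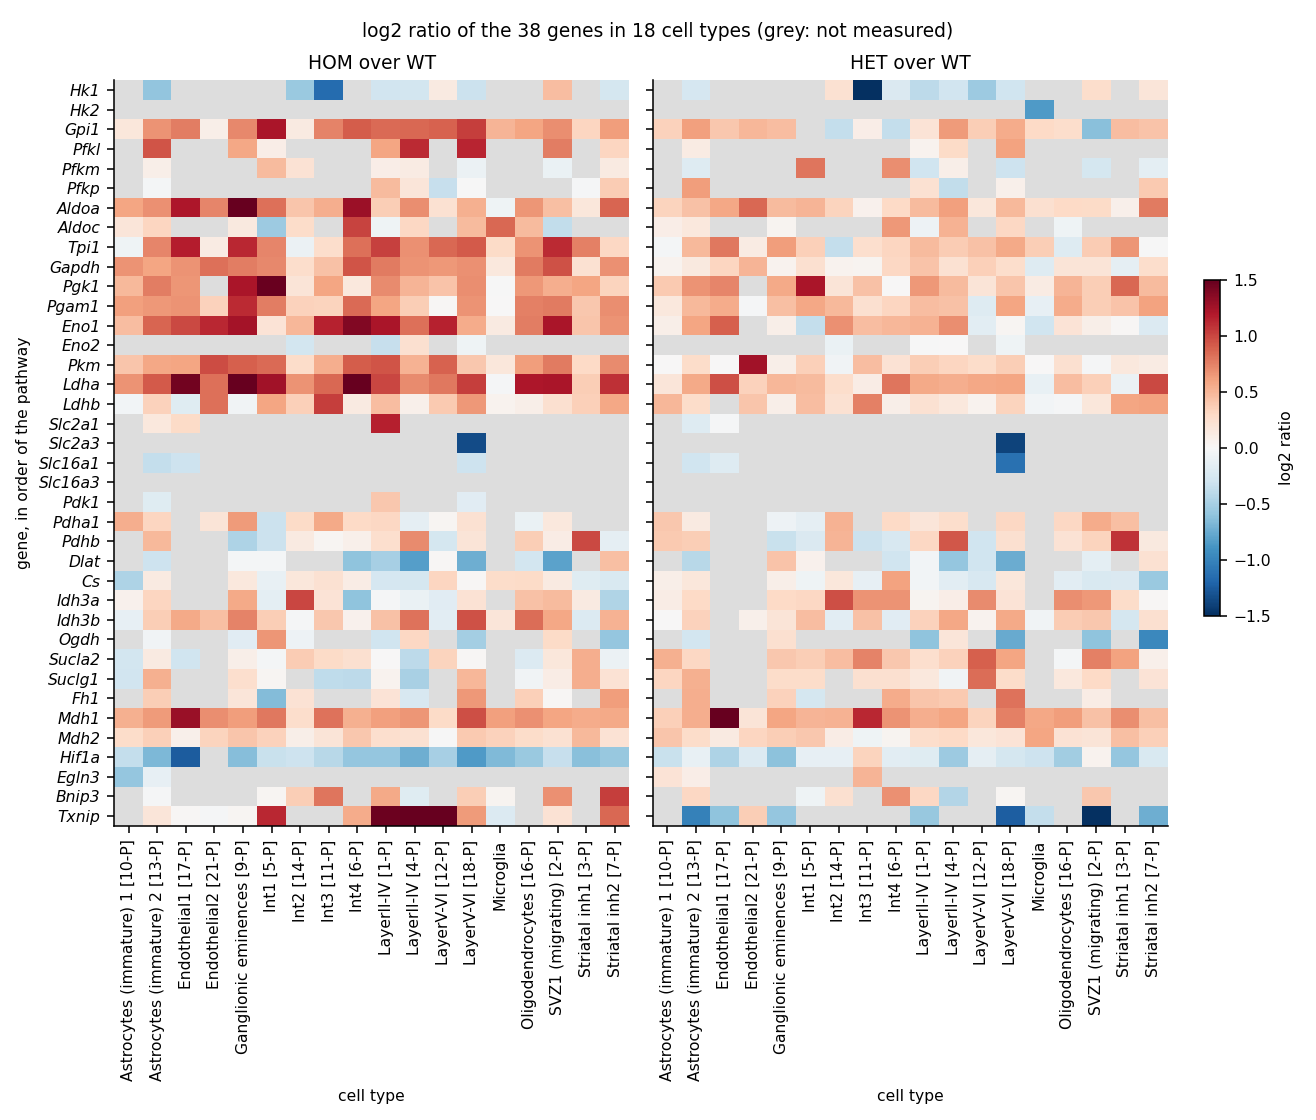
Log2 ratio to WT (colour, red higher and blue lower in the mutant, colours end at -1.5 and 1.5) of the 38 genes in order of the pathway (y axis) in 18 cell types (x axis), HOM on the left and HET on the right, with grey where a gene was not measured. The rows of the 9 glycolytic enzymes are red in most types of HOM but not in Microglia, those of Pfkm, Pfkp, Aldoc and Eno2 between them are paler or mixed, and the row of Hif1a is blue in all 17 types measured in HOM.

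The summed level of the 9 glycolytic enzymes was higher in HOM than in HET and higher in HET than in WT in 18 of 18 types. Of single genes measured in at least 15 types, 8.1% were higher throughout in HOM over WT and 4.49% in HET over WT. For HOM over HET it was 2.45%. Not every enzyme kept the order of the sum. In HET, Eno1 was below WT in 4 of 17 types, Tpi1 in 4 of 18 and Gpi1 in 3 of 17, while Aldoa and Pgk1 never were. The summed level in Ganglionic eminences [9-P] was 8169 CPM in HOM, 4696 in HET and 3963 in WT, the highest of any type in HOM and HET. Some marker sums moved with it there, given in the order HOM, HET, WT. Cycling markers summed to 3883, 3715 and 3295 CPM, astrocyte and radial glia markers to 7554, 5627 and 3986. Oligodendrocyte lineage markers summed to 2350, 1208 and 781 CPM. Interneuron and striatal markers ran the other way, at 1229, 1434 and 1591 CPM, as did layer neuron markers, at 100, 176 and 201. Intermediate progenitor markers kept no such order, at 925, 815 and 874 CPM. Median depth there was 6050, 4031.5 and 3544.5 molecules per cell. The part of these in the levels was not tested. Ldha made up 74.0% of Ldha plus Ldhb there in HOM, 54.0% in HET and 46.8% in WT, and Aldoa reached its largest HOM ratio, 1.58. In Int4 [6-P] interneurons, which had the largest HOM ratios of Ldha (1.84) and Eno1 (1.39), the Ldha share was 43.1% in HOM, 27.6% in HET and 18.9% in WT. Astrocyte and radial glia markers in Int4 [6-P] summed to 2637 CPM in HOM, 1859 in HET and 1363 in WT. Interneuron and striatal markers there ran the other way, at 2736 CPM in HOM, 3043 in HET and 3440 in WT. The part of both was not tested. In LayerII-IV [1-P] the Ldha share was 42.9%, 39.4% and 34.1% in the same order.

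Microglia had the smallest HOM median of the 9 enzymes among the 18 types. The enzymes summed to 5076 CPM in HOM, 4673 in HET and 4659 in WT, none was past the fold higher in either mutant (against 8.52% of genes in HOM and 7.33% in HET), and the medians were 0.13 in HOM and 0.00 in HET. Ldha stood at 550, 514 and 555 CPM in HOM, HET and WT, and Pgam1 at 463, 423 and 462. Mdh1, at 302, 295 and 198 CPM, was past the fold in HOM, at 0.61, and just short of it in HET, at 0.58. Neuronal RNA was found in these cells too, with Stmn2, a microtubule regulator of neurons, at 936, 1091 and 794 CPM, and the part of free RNA in these levels was not tested.

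Endothelial1 [17-P] cells, by contrast, had all 9 enzymes past the fold in HOM (against 14.3% of genes), with a median of 0.76, and 4 of 9 in HET (against 8.85%), with a median of 0.58. Ldha was at 997, 718 and 366 CPM in HOM, HET and WT, and Aldoa at 613, 393 and 264. Mdh1, at 171, 198 and 70.0 CPM, had its largest ratios here, 1.29 in HOM and 1.504 in HET, from a WT sum of 13. The WT library held 149 of these cells.

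Transporters reached measurable sums in few types. Slc2a1, the glucose carrier of the blood-brain barrier, was at 1913 CPM in HOM, 1555 in HET and 1572 in WT in Endothelial1 [17-P], with log2 ratios of 0.28 and -0.02. The next highest type was Astrocytes (immature) 2 [13-P], at 44.7, 34.9 and 39.9 CPM. In LayerII-IV [1-P] neurons it was at 17.4, 11.5 and 7.77 CPM, which is 1.16 in HOM. Slc16a1, which carries lactate across the same endothelium, was at 370, 401 and 458 CPM in Endothelial1 [17-P], slightly lower in both mutants. Slc2a3, the neuronal glucose carrier, reached the minimum sum in LayerV-VI [18-P] only, at 11.9, 11.5 and 30.1 CPM, with ratios of -1.34 in HOM and -1.39 in HET.

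Some members had their highest levels in 1 cell type. Aldoc, the aldolase of astrocytes, was at 2115 CPM in HOM, 2004 in HET and 1868 in WT in Astrocytes (immature) 1 [10-P] and at 1190, 1061 and 953 CPM in Astrocytes (immature) 2 [13-P]. Hk2, an inducible hexokinase, peaked in Microglia, at 39.7, 70.5 and 127 CPM, and the HET ratio was -0.85. Eno2, the enolase of mature neurons, was measured in 4 types for each mutant, with HOM ratios between -0.35 and 0.24 and no value past the fold. Among enolase RNA in LayerII-IV [1-P], Eno1 made up 89.6% in HOM, 80.5% in HET and 74.2% in WT. Slc16a3, a lactate exporter, had no measured ratio, and Pdk1, the kinase that blocks pyruvate dehydrogenase, 3 for HOM against WT, from -0.18 to 0.41.

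Txnip was measured in 13 types for HOM, higher in 11 and past the fold in 6, and in 9 types for HET, lower in 8 and past the fold lower in 5. The most extreme HET value was -2.15 in SVZ1 (migrating) [2-P], from sums of 10 in HET and 75 in WT. In Microglia it was at 143 CPM in HOM, 128 in HET and 164 in WT, lower in both.

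Because the libraries differed in depth, the 4 layer types were summed and compared within bins of molecules per cell. The median of the 9 enzymes for HOM was 0.52 below 1000 molecules, 0.75 from there to 2000, 0.72 from there to 4000 and 1.01 at 4000 and more, and all 9 were higher in every bin. For HET it was 0.44, 0.70, 0.32 and 0.54 in the same order, again with all 9 higher. Over all genes the HOM medians were -0.14, -0.08, -0.04 and -0.10, with 5.77%, 5.61%, 6.32% and 10.2% past 1.5-fold higher. The HET medians over all genes were -0.05, -0.09, -0.06 and -0.10, with 4.51%, 4.22%, 3.47% and 5.14% past it. Txnip in HOM ran from 0.37 in the shallowest bin to 2.09 in the deepest, and Hif1a from -1.07 to -0.53. Within bins of mitochondrial share, below 3%, 3 to 6% and above 6%, the medians of the 9 enzymes were 0.98, 0.66 and 0.56 for HOM and 0.74, 0.36 and 0.44 for HET. Over all genes they were -0.13, -0.11 and -0.12 for HOM and -0.06, -0.12 and -0.05 for HET.

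**Figure D4:**
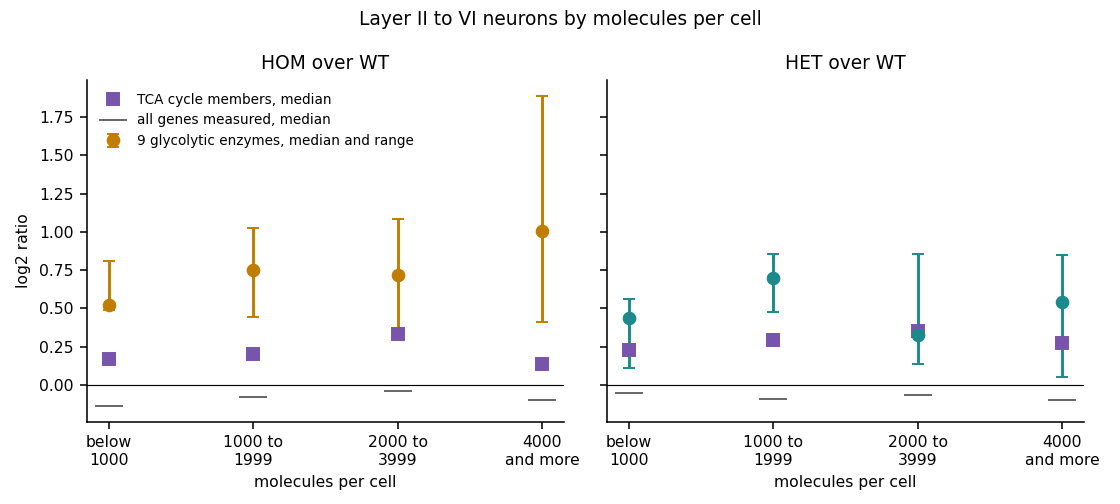
Log2 ratio to WT (y axis) in layer II to VI neurons within 4 bins of molecules per cell (x axis), HOM on the left and HET on the right, with circles and bars for the median and range of the 9 glycolytic enzymes, squares for the median of the TCA cycle members and short lines for the median of all genes. The enzymes are above 0 in every bin, and their HOM median is highest, at 1.01, in the deepest cells.

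Sex could be read within the WT library, which held cells of both sexes. Over the 18 types summed, 585 WT cells with a Y-linked transcript were set against 2107 WT cells with Xist, with median depths of 3175 and 3589 molecules. All 9 enzymes were higher in the Y-linked cells (against 56.1% of genes), with a median log2 ratio of 0.57, against 0.05 over all genes. Of 35 measured members, 6 were past 1.5-fold higher, against 7.90% of genes. Tpi1 was at 150 CPM in Y-linked and 78.1 in Xist cells, Gpi1 at 122 and 73.3, Ldha at 219 and 140 and Txnip at 81.1 and 36.9. Mdh1 (199 and 172 CPM), Hif1a (182 and 170) and Ldhb (323 and 341) differed less. With 2 animals in the library, sex and animal cannot be told apart. The difference held within bins of depth, at 0.80 from 1000 to 2000 molecules (7 of the 9 measured), 0.70 from there to 4000 and 0.67 above, and was 0.54 in the 4 layer types.

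Among Y-linked cells alone, summed over the 18 types, the 9 enzymes were higher in HOM than in WT, and in HET they were mixed. The median over the 9 was 0.51 for HOM, with 9 of 9 higher, and 0.19 for HET, with 5 of 9 higher. Over all genes the medians were -0.04 and -0.01, with 46.3% and 49.0% of genes higher. Levels were also averaged over the 11 types with at least 20 cells of each kind. The median over the 9 was then 0.54 for HOM, with 9 of 9 higher, and -0.08 for HET, with 4 of 9 higher. Over all genes the medians were -0.05 and 0.01, with 45.4% and 51.1% of genes higher. In the layer types the median over the 9 was 0.54 for HOM and 0.01 for HET, against 0.76 and 0.49 in all cells of these types summed. There 8 of 9 were higher in HOM, with Aldoa at -0.21, and 5 of 9 in HET, from 665 HOM, 637 HET and 137 WT cells. Of all genes, 49.5% were higher in HOM and 49.3% in HET. Within depth bins of the layer types the HOM median was 0.52 from 1000 to 2000 molecules (3 of 3 measured enzymes higher), 0.10 from there to 4000 (4 of 7, the lowest at -0.77) and 0.53 above (7 of 8), from 21, 40 and 52 WT cells. The HET median was 0.09 (5 of 5), -0.01 (1 of 3) and -0.20 (2 of 4) in the same bins. Of all genes in these bins, 59.9%, 49.8% and 55.4% were higher in HOM and 58.5%, 52.2% and 55.5% in HET. The levels of single genes that follow are again of the 18 types summed, not of the layer types. Ldha was at 360 CPM in HOM, 257 in HET and 219 in WT Y-linked cells, Gapdh at 1077, 759 and 779 and Eno1 at 232, 164 and 144. Mdh1 stayed higher in both mutants, at 308, 290 and 199 CPM, with ratios of 0.63 and 0.54. Hif1a stayed lower, at 111, 145 and 182 CPM, and Txnip came to 96.6, 45.8 and 81.1 CPM, so its HOM ratio was 0.25 and its HET ratio -0.82. HOM over HET, where nearly all sexed cells were Y-linked, gave a median over the 9 of 0.50 in the 18 types summed. In the layer types it gave 0.42, and 9 of 9 were higher in each, against 45.9% of genes in the 18 types and 50.2% in the layer types.

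**Figure D5:**
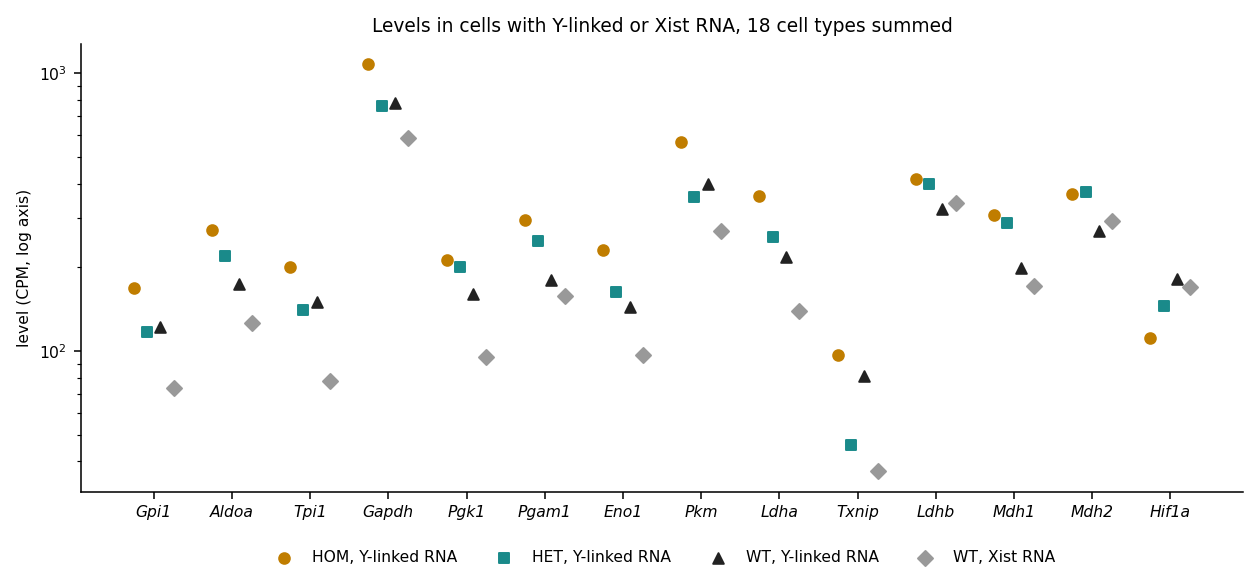
Level in CPM (y axis, log scale) of 14 members (x axis) in HOM, HET and WT cells with a Y-linked transcript and in WT cells with Xist, 18 cell types summed. For the glycolytic enzymes from Gpi1 to Ldha the WT cells with Xist are lowest and the HOM cells highest, and Hif1a is lowest in HOM.

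Other quantities moved with the libraries too. In the layer types a list of 13 dissociation stress and immediate early genes summed to 3552 to 4404 CPM in HOM, 3318 to 3981 in HET and 2708 to 3647 in WT. HOM was highest and WT lowest in each of the 4 types, with up to 6 genes of the list at 0 in a type. Hspa8 held much of these sums, at mean levels of 2699, 2426 and 2038 CPM in HOM, HET and WT. Jun kept the same order, at 86.2, 57.9 and 44.4 CPM. Hsp90aa1 ran the other way, at 790, 877 and 881 CPM, and Jund was at 354, 299 and 312. The 8 markers of astrocytes and radial glia, with the member Aldoc among them, summed to 1052 to 2051 CPM in HOM, 971 to 2026 in HET and 886 to 1654 in WT. They were again highest in HOM and lowest in WT in each type. Of this list Fabp7 was at 0.61 in HOM and 0.47 in HET, with mean levels of 1183, 1066 and 760 CPM in HOM, HET and WT. Sparcl1 went the other way, at -0.24 in HOM and -0.09 in HET. The 12 markers of interneurons and striatal neurons did not keep one order. They summed to 2282 CPM in HOM, 1150 in HET and 1190 in WT in LayerII-IV [4-P] and to 2042, 1181 and 966 in LayerV-VI [18-P], but to 376, 343 and 318 in LayerII-IV [1-P] and 276, 405 and 431 in LayerV-VI [12-P]. The 5 markers of meninges summed to 80.5 to 468 CPM in HOM, against at most 7.33 in HET and 6.15 in WT. The 5 markers of red blood cells summed to 847 to 2340 CPM in HOM, 482 to 1157 in HET and 803 to 1588 in WT. Their sum was lowest in HET in each type. Short transcripts were higher in general. With genes split into 4 equal classes by length, the shortest had a HOM median of 0.19 and the longest -0.25, and 7 and 12 of the 23 members lay in the shorter 2 classes. The third class held Hk1, Dlat and Hif1a, which had negative means in both mutants. Its gene median was -0.13 in HOM and -0.08 in HET, with 34.2% and 36.6% of genes higher. With the median of genes of like length taken away, the 9 enzymes stood at 0.71 in HOM and 0.29 in HET. The part of stress, glial RNA, interneuron RNA, meningeal RNA, red blood cell RNA, transcript length and sex in the differences was not tested beyond these values.

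Genes of the adjoining routes were read in the same layer types from lists that held no member. The median over all genes there was -0.03 in HOM and -0.02 in HET. The mitochondrial pyruvate carrier subunits Mpc1 and Mpc2 had means of 0.44 and 0.44 in HOM and 0.41 and 0.24 in HET. Dld, the other measured gene of that list, was at -0.21 in HOM and -0.06 in HET. With 3 of 10 measured, no gene of the list was past the fold. Of 13 other TCA cycle genes 7 were measured and none was past the fold. Sdhb, the iron-sulfur subunit of succinate dehydrogenase, was at 0.37 in HOM and 0.44 in HET, and Dlst at -0.24 and -0.13. In the pentose phosphate pathway 3 of 7 genes were measured, all with higher means in both mutants. Taldo1, the transaldolase, was past the fold in HOM, at 0.61, beside 0.50 in HET. Tkt was at 0.32 and 0.15 and Pgls at 0.21 and 0.30, each not above WT in every layer type. Of 23 other targets of HIF 4 were measured, all with higher means but none past the fold. Mif, a cytokine, was at 0.52 and 0.43 and Ddit4, an inhibitor of mTOR, at 0.39 and 0.31. Higd1a was at 0.31 and 0.17 and Bnip3l at 0.10 and 0.11, and in HOM neither was above WT in every layer type. Arnt2, the neuronal partner of Hif1a, was lower, at -0.53 and -0.43. None of 19 other glycolysis genes and 11 glycogen genes was measured in all 4 types against WT.

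The genes whose levels were most like the mean of the 9 enzymes over 54 combinations of cell type and library were Serf2 (r = 0.90), Rps2 (0.87), Rps10 (0.87), Rps4x (0.86), Slc25a5 (0.85), Gng5 (0.84), Rpl18 (0.84) and Rps3a1 (0.83), of 6422 genes ranked on log2(CPM + 10). Of these 8, 5 encode ribosomal proteins and Slc25a5 the mitochondrial exchanger of ADP and ATP. Ulk1 (-0.87), Smg1 (-0.85) and Rc3h2 (-0.85) were least like it. These points share libraries, depth and cell types, so the correlations only describe the table. Among members outside the 9, Pdha1 (0.60), Aldoc (0.56) and Mdh1 (0.50) were most like it, and Ldhb (0.19) and Mdh2 (-0.02) were not. Of the other glycolytic members left out of the 9, Eno2 (-0.51), Pfkp (-0.41), Pfkm (-0.37) and Hk1 (-0.31) were negative and Pfkl (0.44) positive.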

How the data were processed

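Per the paper and the submitters' processing notes, the authors used Cell Ranger 4.0.0 on mm10, then Seurat 4.0 and Scanpy. They filtered cells on gene number and mitochondrial content, took out blood cells and transferred cell type names with scANVI. No source used here says whether doublets were removed, and none were called. The deposited matrix was treated as a score: its whole numbers sum to 825 to 1952 per cell, whereas molecules run between 499 and 17602, with equality in 617 of 36263 cells. Depth had therefore been corrected, and neither count models nor counting intervals fit such values. From the deposited cell table came molecule counts, mitochondrial percent and the fraction giving the type probability. The comparison tables of the authors (fold changes, p-values, shares of cells) were left aside. Free RNA was not estimated.

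Values were summed per library and cell type and divided by their total. Means over the 4 layer types were taken for genes measured in each. The cell table gives no animal for a cell, and values per run were not at hand. Gapdh, Eno1, Pgam1, Ldha, Tpi1 and Pgk1 have near-identical copies in the mouse genome, and their values are uncertain since the sharing of reads among copies is not given. Named genes were members measured in all 4 layer types or past the fold in at least 3 types, and up to 3 genes of each other list. Members and lists were chosen with earlier results of these data known. Alternatives covered scaling, minimum sum, depth, mitochondrial share, type probability, sex and threshold. Ratios were tested on simulated data. Python 3.11.15, numpy 2.4.6, pandas 2.3.3 and matplotlib 3.10.9 were used, and edgeR 4.0.16 for TMM factors only.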

Additional observations from a re-analysis of the deposited data

How the results depend on the processing

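Where more than 1 member was measured, no result below changed sign. Among the Y-linked comparisons above, however, the HET median of the 9 enzymes was negative in some. It was -0.08 averaged over 11 types, and -0.01 and -0.20 in the layer types from 2000 to 4000 molecules and above. In layer neurons, the HOM against WT member median of 0.42 became 0.53 with TMM scaling, 0.22 with a minimum sum of 20 and with none, 0.63 with 200, 0.84 in cells with at least 2000 molecules, 0.69 in cells with 1000 to 2000, 0.30 with the length trend taken away and 0.25 with the 4 types summed. TMM scaling moved the median of all genes by about as much, to 0.08 in HOM and 0.07 in HET. The share of members higher in all layer types (52.2%) became 80.0% with a minimum sum of 200, 88.9% at 2000 molecules and more and 100% at 1000 to 2000, and the share past the fold (39.1%) became 60%, 77.8% and 75.0% in the same order and 4.35% at 2-fold. Few members remained measured in these, 5 at a minimum sum of 200, 9 at 2000 molecules and more and 4 at 1000 to 2000. With Y-linked cells kept per type, 1 member was measured, at 0.47 in HOM and -0.06 in HET.

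The 9 enzymes in HOM (0.70) stood at 0.81 with TMM, 0.86 with cells weighted by molecules, 0.94 at 2000 molecules and more, 0.59 with the level trend taken away, 0.55 in Y-linked cells summed and 0.79 without the X-linked Pgk1 and Pdha1. In HET (0.43) they stood at 0.23 at a mitochondrial share of 3 to 6%, 0.29 with the length trend taken away and 0.027 in Y-linked cells summed. The HET member median (0.32) became 0.40 with TMM, 0.24 without a minimum sum, 0.24 at 3 to 6% and 0.13 in Y-linked cells summed, and the share higher in all types (61.9%) became 100% at a minimum sum of 200. Over all cell types, the share past the fold in HOM (33.5%) became 51.5% at 2000 molecules and more, 8.43% at 2-fold and 52.3% at a log2 threshold of 0.32, and in HET (13.7%) 24.5% at 1000 to 2000 molecules, 1.18% at 2-fold and 40.9% at 0.32. HOM over HET (0.09) became 0.20 at a minimum sum of 200, 0.29 at 2000 molecules and more, 0.20 at 1000 to 2000, 0.27 at 3 to 6% and 0.31 in Y-linked cells, where 5 members were measured. The cause of these shifts was not tested. The trends, the summed types and the runs without Pgk1 and Pdha1 were chosen after seeing the data.

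No paired analysis was possible because the numbered samples are runs of one library and values per run were not at hand, so leaving out single runs was not run either. Genes with low sums, among them Txnip and most transporters, limit what can be said per cell type.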
